A study of Mus musculus with 35 samples.

Results

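The 39 interferon-stimulated genes described here are genes whose transcripts are known to accumulate when a cell responds to interferon. They were read from the gene count table of interscapular brown adipose tissue (iBAT) by their symbols, all 39 were found, and they are 39 of its 55421 rows. The set was drawn up because Rsad2 and Ifit3 varied among the 35 libraries more than nearly all other genes, so the values of these 2 genes are given as a description with no test, and counts of members past a test are taken over the other 37. The 35 libraries came from 35 male C57BL/6J mice aged 9 to 10 weeks of a wild-type strain, 5 per group. Control mice stayed at room temperature, 24 °C, and the other groups were kept at 6 °C for 6 hours or for 1, 2, 3, 4 or 5 days. Mice in the cold were housed alone and without nesting material, and how many controls shared a cage is not given in the sources used here, so cold and housing cannot be told apart in the comparisons with controls. RNA of the whole fat pad was counted by 3' sequencing, in which 1 tag is read near the 3' end of a transcript.

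Interferons are secreted proteins that warn cells of infection. Type I interferons bind a receptor made of Ifnar1 and Ifnar2, whose kinases Jak1 and Tyk2 activate Stat2. Stat2 and Irf9 are parts of the complex ISGF3, which binds a DNA element called the ISRE (interferon-stimulated response element). Type II interferon, Ifng, signals through Ifngr1 and Ifngr2 and acts on another element, GAS (gamma-activated sequence). The induced proteins sense viral RNA, block viral replication or translation, modify other proteins and amplify the response, and many genes of the set respond to both types. Brown fat is known for heat production through the mitochondrial uncoupling protein Ucp1, and it also holds endothelial, stromal and immune cells, all of which can respond to interferon. In RNA from whole tissue, more cells of a type and more RNA per cell cannot be told apart.

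The libraries held 3846016 to 6047247 counts, so 1 read was worth 0.26 CPM in the smallest and 0.165 CPM in the largest, where CPM are reads scaled to a common library total. Levels below are CPM after TMM normalization, given for mice 1 to 5 of a group in the order of their labels. The numbers name mice and do not pair them across groups. The tissue label was checked with Ucp1, which stood at 1274 to 2771 CPM in the controls and at 4126 to 8982 CPM in the cold. Skeletal muscle genes, which brown fat lacks, summed to between 2.31 and 921 CPM and varied within every group. Control mouse 5 stood apart in the macrophage gene Adgre1, at 18.0 CPM against 0.572 to 2.40 CPM in the other controls.

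The promoters show the DNA element through which the response is known to run. Of the 39 members, 29 had an entry among the RefSeq promoters (build GRCm38.p6), and the 250 bases before the start site were searched on both strands. The core of the ISRE, taken as GAAA and GAAA parted by 2 bases of any kind, was present in 15 of these 29 (51.7%), against 936 of the 27025 genes with an entry (3.46%). The letters TTCNNNGAA of the GAS element were present in 4 of 29 (13.8%), against 2197 of 27025 (8.13%). In no member did the ISRE match nearest the start site overlap a GAS match. In Bst2 a GAS match shared bases with an ISRE match farther from the start site. All 5 interferon-induced GTPases held the ISRE core, as did 3 of the 4 IFIT genes. The stretches below are shown because their genes carry the late or the early pattern described next. They are written on the strand of the gene, from 5' to 3', with each match to the ISRE core in capitals (TTTC and TTTC parted by 2 bases are the same core on the opposite strand). The first 5 belong to genes whose counts were high late in the cold, and the last pair to GTPases that were low early.
Rsad2, chr12:26456538-26456597 (−): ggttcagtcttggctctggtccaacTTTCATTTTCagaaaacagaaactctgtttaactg
Ifit3, chr19:34583373-34583441 (+): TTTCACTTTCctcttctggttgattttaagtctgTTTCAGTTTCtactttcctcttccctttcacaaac
Ifit1, chr19:34640779-34640838 (+): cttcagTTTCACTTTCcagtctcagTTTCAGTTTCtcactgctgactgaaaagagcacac
Isg15, chr4:156200850-156200909 (−): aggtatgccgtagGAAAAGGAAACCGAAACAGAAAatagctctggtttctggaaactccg
Cxcl10, chr5:92349068-92349127 (−): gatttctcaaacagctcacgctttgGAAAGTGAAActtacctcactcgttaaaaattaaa
Gbp7, chr3:142530258-142530317 (+): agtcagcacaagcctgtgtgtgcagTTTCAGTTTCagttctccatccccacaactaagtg
Igtp, chr11:58199497-58199555 (+): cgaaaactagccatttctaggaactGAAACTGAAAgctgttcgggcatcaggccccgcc
The stretch of Ifit3 is also found, letter for letter, before Ifit3b at chr19:34607769-34607837 (+), and in Isg15 the capitals join 3 overlapping matches. Several members are neighbours. Rsad2 (chr12:26442746-26456452, minus strand) lies beside Cmpk2 (chr12:26469204-26479837, plus strand), the 4 IFIT genes lie within chr19:34550694-34650009, and Gbp7, Gbp3 and Gbp2 lie within chr3:142530342-142638008.

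Over time in the cold the members moved in a low, then a high phase. To show this in 1 number per mouse, log2 CPM less the gene's own mean was averaged over the 36 members with a mean of at least 10 counts. This profile averaged −0.48 ± 0.13 (SD, n = 5) in the controls, and −1.18 ± 0.059 at 6 hours, −0.94 ± 0.31 at 1 day and −0.32 ± 0.42 at 2 days of cold. It then stood at 1.35 ± 1.01 at 3 days, 0.89 ± 1.03 at 4 days and 0.67 ± 0.92 at 5 days. The 5 mice after 6 hours lay within −1.23 to −1.10, all below the lowest control at −0.56. After 3 days the mice stood at 2.14, 0.60, 1.84, 2.21 and −0.05, after 4 days at 2.02, 1.69, 1.08, −0.21 and −0.15, and after 5 days at 1.42, 0.28, −0.56, 0.48 and 1.74. From 3 days on, then, each group held mice with high values beside mice near the controls, and mouse 5 at 3 days, mice 4 and 5 at 4 days and mouse 3 at 5 days were the lowest.

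**Figure D1:**
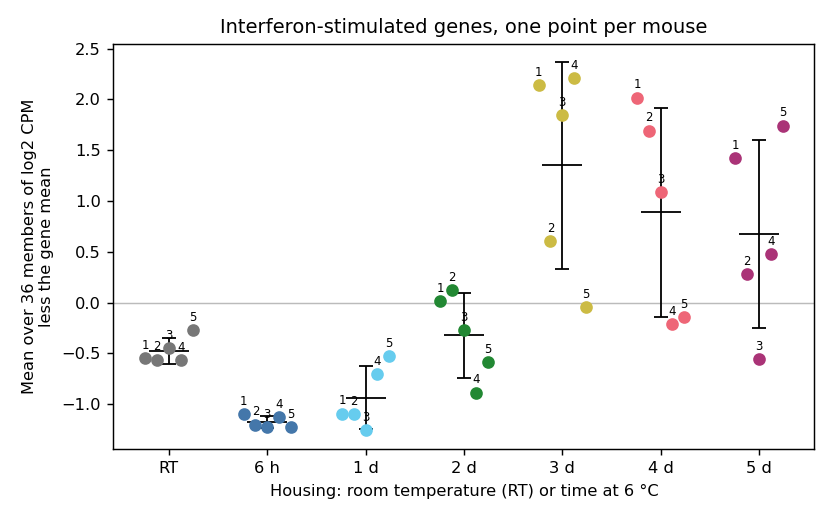
Profile of the interferon-stimulated genes in each mouse, as the mean over 36 members of log2 CPM less the gene's mean, by group. Each point is 1 mouse with its number, and bars are the mean and SD of 5 mice. The groups after 6 hours and 1 day sit below most controls, and the groups after 3, 4 and 5 days reach from near the controls to above 1.

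Rsad2 encodes viperin, an enzyme that makes a chain-terminating nucleotide and is among the best known antiviral products of interferon. It stood at 17.9, 21.2, 24.0, 27.7 and 31.4 CPM in the controls, at 14.3, 8.59, 14.1, 6.61 and 12.4 CPM after 6 hours and at 9.28, 14.1, 9.89, 18.6 and 15.4 CPM after 1 day. All 5 mice after 6 hours lay below every control, and after 1 day mouse 4 alone reached their range. After 2 days Rsad2 stood at 50.1, 44.2, 56.3, 17.4 and 24.8 CPM, with mice 1 to 3 above all controls. It stood at 419, 93.4, 389, 455 and 58.3 CPM after 3 days, at 394, 317, 180, 53.9 and 50.3 CPM after 4 days and at 278, 61.1, 30.6, 94.6 and 367 CPM after 5 days. Every mouse at 3 and 4 days was above the highest control, and at 5 days mouse 3 was not. The group means were 24.4 ± 5.32 CPM in the controls and 283 ± 191 CPM after 3 days.

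Ifit3, a member of a family of proteins that bind viral RNA and restrain its translation, was at 3.43, 2.29, 4.15, 3.10 and 9.88 CPM in the controls and at 73.9, 17.4, 63.8, 77.3 and 7.96 CPM after 3 days. It was at 76.8, 50.3, 25.6, 8.48 and 8.50 CPM after 4 days and at 44.1, 7.94, 1.29, 15.7 and 53.7 CPM after 5 days. The mice with low Rsad2 in these groups were the mice with low Ifit3, and mouse 5 at 3 days and mice 4 and 5 at 4 days were inside the range of the controls, as was mouse 2 at 5 days, while mouse 3 at 5 days was below it. By the SD of log2 CPM over all 35 mice, which is the measure behind the choice, Ifit3 ranked 16th (SD 1.88) and Rsad2 18th (SD 1.85) of 10651 genes, with the member Oasl1 at rank 17. The members spread widely in rank, down to 4022 for Dtx3l. Of the 76-base windows in the last 400 bases of Ifit3, 12.6% also occurred in Ifit3b, so the counts of the pair are not fully separate.

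Each duration was compared with the 5 controls in its own edgeR fit over all genes, and the 6 comparisons share those controls. Early in the cold the tested members moved down. After 6 hours 21 of the 37 members passed the filter on low counts, 14 of them fell and 0 rose (edgeR, adjusted p below 0.05), beside 21.0% of all genes tested that fell and 21.5% that rose. No member rose at an unadjusted p below 0.05 or in DESeq2 (0 in each), and 15 fell at that unadjusted p. In 1 fit of all 7 groups 9 members fell. The median log2 fold change of the tested members was −0.77, against −0.03 over all genes. After 1 day 24 members passed, 11 fell and 0 rose (17.8% of all genes fell and 18.9% rose), again with 0 higher at an unadjusted p below 0.05 and 0 in DESeq2. In 11 members every mouse after 6 hours lay below every control (12.7% of all genes tested), and after 1 day this held for 8 (11.3%). Members such as Gbp3, Irgm1 and Xaf1 passed the filter mainly through their values in the controls. Members with few reads in the controls, such as Irf7, went untested. Part of these early counts was thus set by the filter.

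After 2 days 28 members were tested, 3 were higher (16.4% of all genes) and 4 lower (14.7%), shares no larger than those of all genes. In 1 fit of all 7 groups none of these calls held (0 higher and 0 lower, against 3 and 4 in DESeq2). With scaling by library size alone, under which the median gene moved by −0.24, 2 were higher and 6 lower. After 3 days 24 of 29 tested members were higher (18.3% of all genes) and 0 lower. More members passed the filter here than at 6 hours. A member that passed only through high values in the cold, such as Irf7, Isg15, Ifit1, Ifit2 or Ifit3b, had to differ. Part of the later counts was thus set by the filter. None was lower at an unadjusted p below 0.05 (0) or in DESeq2 (0), while 15.5% of all genes fell. The median was 1.66, against −0.01 over all genes. After 4 days 19 of 29 were higher (19.4% of all genes) and 1 was lower (18.6%), and after 5 days 15 of 28 were higher (20.2%) and 1 was lower (18.6%). Every mouse lay above every control in 16 members after 3 days (12.1% of all genes tested), in 11 after 4 days (14.0%) and in 7 after 5 days (14.1%). Such counts of members without overlap, early and late, are over all 37, tested or not, while the shares are over the genes tested.

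**Figure D2:**
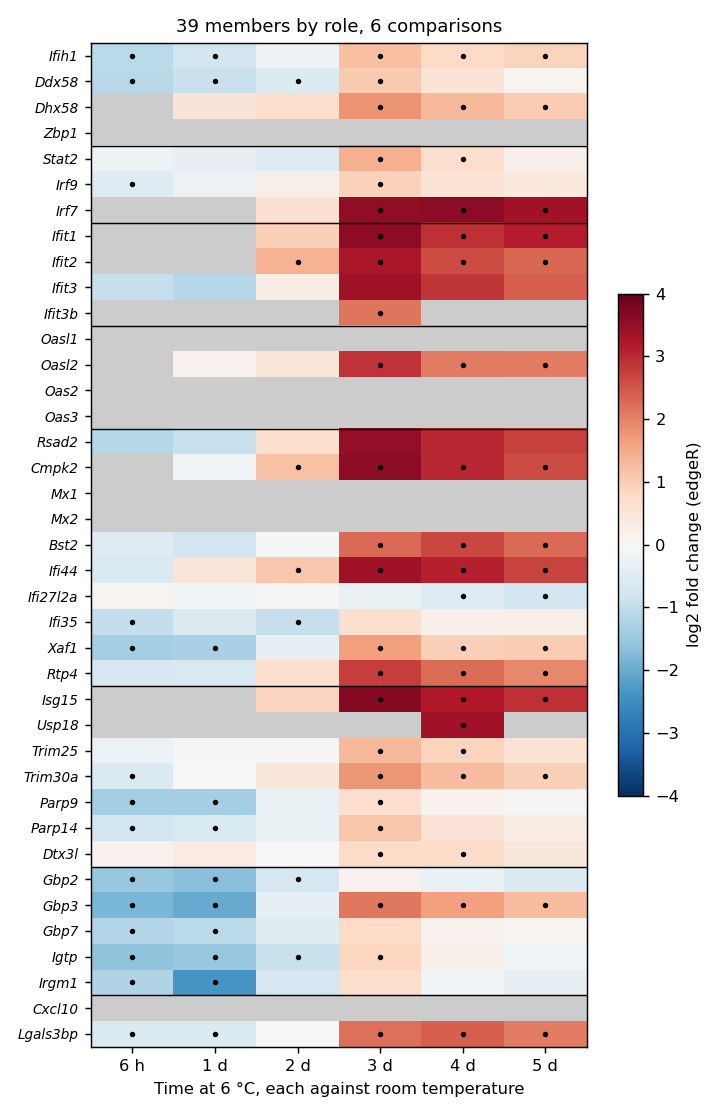
Log2 fold change of each of the 39 members, grouped by role, in the 6 comparisons of a cold group with room temperature (5 mice each). A dot marks a member called by edgeR (adjusted p below 0.05, no dot is drawn for Rsad2 and Ifit3), and grey marks a member that did not pass the filter on low counts. The fall after 6 hours and 1 day covers the GTPases, Parp9 and the sensors Ddx58 and Ifih1. The rise at 3 days covers members of every role, with 5 of the 29 tested not called (Gbp2, Gbp7, Irgm1, Ifi35 and Ifi27l2a).

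Among the sensors of foreign RNA, Ddx58 (RIG-I) and Ifih1 (MDA5) both fell early. Ddx58 stood at 18.1, 18.1, 24.7, 18.1 and 17.2 CPM in the controls, at 11.2, 9.52, 7.37, 7.32 and 9.65 CPM after 6 hours and at 12.2, 7.84, 8.45, 13.5 and 10.4 CPM after 1 day. Neither early group overlapped the controls, and the fall was −1.12 on the log2 scale after 6 hours (SE 0.16, adjusted p = 1.91e-05) and −0.89 after 1 day (adjusted p = 0.000537). It reached 54.0, 19.8, 52.8, 56.1 and 13.6 CPM after 3 days (log2 fold change 1.03, SE 0.30, adjusted p = 0.014). Mice 1, 3 and 4 were above all controls and mouse 5 was below them all. By 5 days Ddx58 no longer passed the test, at 30.0, 14.3, 12.3, 14.3 and 33.4 CPM (log2 fold change 0.10, adjusted p = 0.776).

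Ifih1 was at 10.5, 10.9, 10.7, 8.97 and 12.2 CPM in the controls, at 5.48, 4.65, 5.36, 6.85 and 3.46 CPM after 6 hours and at 6.31, 3.69, 5.93, 8.67 and 8.05 CPM after 1 day. It fell by 1.09 after 6 hours (SE 0.19, adjusted p = 0.000222) and by 0.73 after 1 day (adjusted p = 0.0103) with no overlap. Its levels were 34.9, 12.2, 22.9, 44.3 and 9.50 CPM after 3 days, a rise of 1.22 (SE 0.32, adjusted p = 0.0074), with mice 2 and 5 inside the range of the controls. The calls of Ifih1 at 4 days (0.79, adjusted p = 0.0303) and 5 days (0.88, adjusted p = 0.0392) were lost when single mice of either group were left out, in 6 and 7 of 10 fits. Dhx58 (LGP2), which tunes the pair of sensors above, rose at 3, 4 and 5 days by 1.81, 1.31 and 1.03.

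All 3 transcription factors were higher at 3 days. Irf7, which interferon induces and which in turn drives more interferon transcription, was too low to be tested before 2 days. Its values, printed because they were seen to be large, were 1.72, 1.91, 3.06, 1.14 and 1.44 CPM in the controls and 29.5, 7.23, 22.9, 43.7 and 3.59 CPM after 3 days. They were 42.2, 38.6, 18.3, 5.85 and 5.24 CPM after 4 days and 27.9, 7.06, 4.31, 18.8 and 37.0 CPM after 5 days. All 15 of these mice were above the highest control. The rise was 3.55 (SE 0.55) after 3 days, 3.58 (SE 0.57) after 4 days and 3.36 (SE 0.49) after 5 days. Irf7 passed the filter through its high values in the cold, so these differences are given without their tests.

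Irf9, the DNA-binding part of ISGF3, moved less. It was at 13.2, 13.3, 14.4, 15.8 and 12.2 CPM in the controls and at 12.8, 9.52, 9.16, 9.44 and 8.38 CPM after 6 hours, where it fell by 0.52 (adjusted p = 0.0102) although mouse 1 overlapped the controls. After 3 days it was at 30.0, 17.6, 35.7, 30.7 and 16.2 CPM, above every control, with a rise of 0.92 (adjusted p = 0.00195). Its differences at 4 days (0.55, adjusted p = 0.058) and 5 days (0.42, adjusted p = 0.107) did not pass the test. Exons of Irf9 overlap those of Rnf31 on the same strand, so its counts are uncertain. Stat2, a part of ISGF3, rose by 1.41 after 3 days (adjusted p = 0.00125) and by 0.69 after 4 days (adjusted p = 0.0444).

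The interferon-induced GTPases, which attack the membranes around microbes inside the cell, fell early as a whole group. All 5 (Gbp2, Gbp3, Gbp7, Igtp and Irgm1) fell after 6 hours and all 5 fell after 1 day, with medians of −1.51 and −1.68. Beside them, 21.0% and 17.8% of all genes fell, and the filter set part of the count of 5. Gbp3 stood at 6.10, 5.53, 6.55, 6.68 and 12.8 CPM in the controls, at 2.09, 2.56, 2.23, 1.89 and 2.00 CPM after 6 hours and at 1.30, 1.85, 1.26, 1.79 and 3.45 CPM after 1 day. No mouse of either group reached the lowest control. The fall was −1.83 (SE 0.28) after 6 hours and −2.01 (SE 0.33) after 1 day. Gbp3 passed the filter there mainly through its values in the controls, so both falls are given without tests.

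Gbp2, chosen after its values were seen, stood at 17.0, 18.3, 19.9, 17.0 and 31.3 CPM in the controls and at 9.91, 9.06, 5.81, 5.19 and 7.29 CPM after 6 hours. After 1 day it was at 2.6, 5.08, 5.75, 8.16 and 11.7 CPM. Neither early group overlapped the controls, and the falls were −1.51 (SE 0.21, adjusted p = 1.9e-05) and −1.68 (SE 0.29, adjusted p = 0.000241). Igtp fell by 1.59 after 6 hours (SE 0.28, adjusted p = 0.0002) and by 1.51 after 1 day (SE 0.33, adjusted p = 0.00194). Irgm1 fell by 1.20 after 6 hours (SE 0.38) and by 2.37 after 1 day (SE 0.43). Irgm1 passed the filter there mainly through its values in the controls, so its falls are given without tests. Irgm1 was at 4.39 ± 2.09 CPM in the controls and 0.813 ± 0.445 CPM after 1 day, the latter a handful of reads per mouse. Igtp shares exon sequence with Irgm2 on the same strand and 1.97% of the 76-base windows of Gbp3 occur in Gbp7, so these counts are uncertain.

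Late in the cold 2 of the 5 GTPases were called higher at 3 days and 1 at 4 and at 5 days. Of all genes, 18.3%, 19.4% and 20.2% were higher at 3, 4 and 5 days, so the later counts are near those shares. Differences between the GTPases were not tested. Gbp3 stood at 42.9, 13.0, 38.1, 62.8 and 5.65 CPM after 3 days, a rise of 2.10 (SE 0.45, adjusted p = 0.00189), and it was also called at 4 days (1.63, SE 0.42, adjusted p = 0.00593) and 5 days (1.22, SE 0.36, adjusted p = 0.0119). Igtp passed at 3 days only (0.86, adjusted p = 0.0495). Gbp2, at 30.0, 13.0, 26.5, 35.6 and 10.5 CPM after 3 days, straddled the controls (0.16, SE 0.27, adjusted p = 0.691), and its fold changes were −0.30 at 4 days (adjusted p = 0.469) and −0.55 at 5 days (adjusted p = 0.0812).

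Gbp7 stood at 20.6, 21.7, 35.8, 24.8 and 44.4 CPM in the controls, at 16.2, 15.8, 9.39, 16.8 and 9.11 CPM after 6 hours and at 73.1, 26.4, 54.1, 79.6 and 20.8 CPM after 3 days. Its fall at 6 hours (−1.17, SE 0.23, adjusted p = 0.000449) showed no overlap, and its difference at 3 days (0.78, SE 0.31, adjusted p = 0.0622) did not pass the test. Exons of Gbp7 overlap those of Gm43802 on the same strand. Set against the mice at 1 day instead of the controls, all 5 GTPases were higher at 3 days, by 1.82 (Gbp2) to 4.10 (Gbp3).

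**Figure D3:**
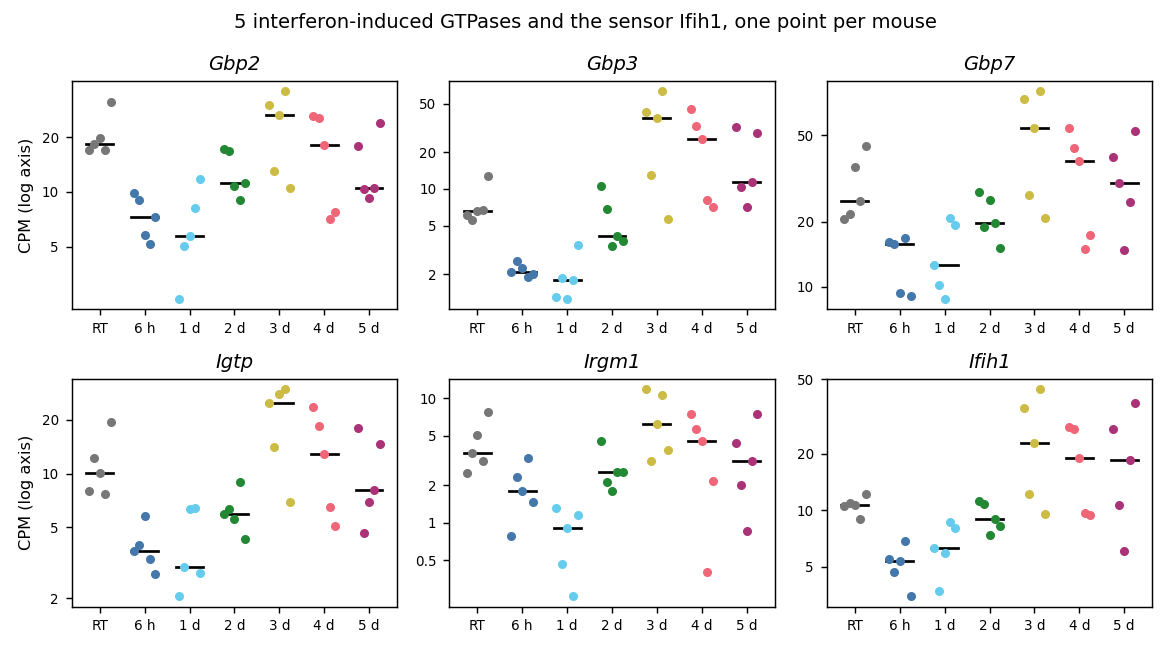
Levels of Gbp2, Gbp3, Gbp7, Igtp, Irgm1 and Ifih1 in each mouse, in CPM on a log axis, by group. Each point is 1 mouse and the black line is the median of 5 mice. All 6 genes drop after 6 hours and 1 day, and after 3 days Gbp3 lies mostly above the controls while Gbp2 straddles them.

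Of the IFIT genes, Ifit1, Ifit2 and Ifit3b were too low to be tested at 6 hours and 1 day and rose late. Ifit3, described above without a test, had more reads. It stood at 2.61, 1.63, 2.91, 3.54 and 1.64 CPM after 6 hours and at 1.11, 1.38, 0.539, 2.04 and 5.75 CPM after 1 day. Ifit1 was at 2.35 ± 1.38 CPM in the controls and 27.9 ± 19.0 CPM after 3 days, a rise of 3.57 (SE 0.52), and it was still higher at 5 days by 3.14 (SE 0.59). Ifit2 was the first of them to be called, at 2 days, with 4.52 ± 1.84 CPM against 1.68 ± 0.889 CPM in the controls (1.40, SE 0.41, a call lost without mouse 3 of 2 days). It rose by 3.27, 2.61 and 2.31 at 3, 4 and 5 days. Ifit1 and Ifit2 passed the filter through their high values in the cold, so their differences are given without tests. Ifit3b passed the filter at 3 days only, through its high values there, so its log2 fold change of 2.13 is given without its test.

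Of the OAS family, whose enzymes activate an RNA-degrading nuclease, only Oasl2 passed the filter in the comparisons with controls. Oasl2 stood at 1.72, 1.72, 3.27, 2.77 and 2.87 CPM in the controls and at 29.3, 8.26, 25.6, 24.0 and 5.39 CPM after 3 days, all above the highest control (2.90, SE 0.41, adjusted p = 5.65e-05). At 16.6, 15.6, 12.9, 4.24 and 3.80 CPM after 4 days it was also clear of the controls (2.08, adjusted p = 0.00069). At 14.7, 6.62, 3.45, 3.13 and 23.9 CPM after 5 days it was higher by 2.04 (adjusted p = 0.00256), with mouse 4 inside the range of the controls.

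Cmpk2, the mitochondrial nucleotide kinase that neighbours Rsad2, was called from 2 days on. It stood at 1.91, 1.52, 3.71, 3.91 and 3.77 CPM in the controls and at 6.96, 5.62, 9.50, 5.64 and 5.71 CPM after 2 days, with no overlap (1.16, SE 0.29, adjusted p = 0.00632). After 3 days it was at 47.9, 14.9, 39.7, 67.8 and 9.50 CPM (3.58, SE 0.47, adjusted p = 2.29e-05), after 4 days at 47.7, 39.8, 20.2, 7.06 and 7.59 CPM and after 5 days at 30.5, 6.62, 5.81, 11.9 and 37.4 CPM. From 2 days on, every mouse was above the highest control. Ifi44, an antiviral protein, rose by 3.39 at 3 days (adjusted p = 3.5e-05), 3.10 at 4 days and 2.71 at 5 days. Its call at 2 days (1.09, SE 0.36, adjusted p = 0.0282) was lost in 6 of 10 fits that left out 1 mouse.

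Bst2 (tetherin), which holds budding virions at the cell surface, rose by 2.28, 2.67 and 2.26 at 3, 4 and 5 days, and Rtp4, which restrains viral replication, by 2.75, 2.25 and 1.93. Xaf1, a protein that favours cell death, fell first and rose later. It was at 3.81, 3.43, 5.02, 4.56 and 5.57 CPM in the controls, at 2.09, 3.02, 0.894, 1.18 and 1.64 CPM after 6 hours and at 21.7, 6.20, 17.6, 21.1 and 4.11 CPM after 3 days. The fall at 6 hours (−1.37, SE 0.32) showed no overlap. Xaf1 passed the filter there mainly through its values in the controls, so this fall is given without its test. The rise at 3 days was 1.66 (adjusted p = 0.00256) with mouse 5 inside the controls. Its later calls (0.95, adjusted p = 0.0347, and 1.01, adjusted p = 0.0201) were lost without single mice in 7 and 2 of 10 fits. Ifi35 fell at 6 hours (−0.95, adjusted p = 0.0197) and 2 days (−0.91, adjusted p = 0.0134) and was not called later.

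Ifi27l2a was the member called lower at 4 and 5 days. It stood at 344, 287, 544, 327 and 277 CPM in the controls, at 253, 317, 266, 213 and 214 CPM after 4 days and at 152, 308, 136, 255 and 237 CPM after 5 days. It fell by 0.51 after 4 days (SE 0.16, adjusted p = 0.0212) and by 0.73 after 5 days (SE 0.20, adjusted p = 0.00853), with overlap both times. The call at 4 days was lost without control mouse 3 or without mouse 4 or 5 of 4 days. After 3 days it was at 281, 358, 158, 430 and 242 CPM and its difference was −0.29 (adjusted p = 0.341).

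Isg15, a ubiquitin-like protein that is attached to others during the response, had the largest fold change of the 29 tested members at 3 days. Its values, printed because they were seen to be large, were 0.953, 1.52, 1.31, 2.12 and 2.16 CPM in the controls and 23.8, 8.47, 29.9, 36.7 and 4.62 CPM after 3 days, all above the controls (3.65, SE 0.49). After 4 days they were 34.0, 24.7, 12.9, 1.41 and 4.52 CPM (3.22, SE 0.63) and after 5 days 20.7, 6.62, 1.94, 7.83 and 27.3 CPM (2.94, SE 0.53), each time with 1 mouse inside the range of the controls. With 5, 8, 6, 13 and 12 counts in the controls, Isg15 passed the filter mainly through its high values in the cold. Its differences are therefore given without tests. Usp18, which removes Isg15 from proteins and damps the receptor, passed the filter at 4 days only. It was then at 9.82 ± 6.70 CPM against 0.921 ± 0.403 CPM in the controls, and since it passed through its high values there, the difference is given without its test.

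The ubiquitin ligases Trim25 and Trim30a rose at 3 days by 1.31 (adjusted p = 6.5e-05) and 1.75, and Trim30a had fallen at 6 hours by 0.56 (adjusted p = 0.0134). Parp9 and Dtx3l form a complex of an ADP-ribose enzyme and a ubiquitin ligase. Parp9 fell from 17.8 ± 1.42 to 6.90 ± 2.04 CPM after 6 hours (−1.40, SE 0.18, adjusted p = 6.87e-06) and was lower by 1.37 after 1 day (SE 0.15, adjusted p = 3.24e-06). Its rise at 3 days was small (0.67, adjusted p = 0.0411), as was that of Dtx3l (0.73, adjusted p = 0.00825). The 2 genes overlap on opposite strands, and the strand setting of the counting is not given in the sources used here, so their reads may not be fully separate.

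Parp14, another ADP-ribosyl transferase, was at 13.5, 21.0, 21.8, 19.2 and 29.6 CPM in the controls, at 13.3, 13.2, 10.3, 15.1 and 11.3 CPM after 6 hours and at 71.5, 22.1, 55.3, 58.4 and 19.0 CPM after 3 days. It fell by 0.77 at 6 hours (adjusted p = 0.00239) and rose by 1.10 at 3 days (adjusted p = 0.0104), overlapping the controls both times. Its call at 1 day (−0.59, adjusted p = 0.0221) was lost in 4 of 10 fits that left out 1 mouse, and exons of Parp14 overlap those of Gm49730 on the same strand.

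Lgals3bp, a secreted glycoprotein that binds galectins, was called higher at 3, 4 and 5 days. It stood at 19.3, 16.2, 24.7, 19.1 and 14.4 CPM in the controls, at 14.3, 12.1, 15, 13.2 and 9.65 CPM after 6 hours and at 10.0, 12.0, 15.6, 11.7 and 14.0 CPM after 1 day. These falls of 0.57 each passed the test (adjusted p = 0.00777 and 0.0117) with some overlap. After 3 days it was at 92.5, 49.0, 102, 145 and 43.9 CPM, after 4 days at 171, 139, 112, 37.1 and 35.8 CPM and after 5 days at 105, 65.7, 25.8, 70.1 and 129 CPM, all above the highest control. The rises were 2.21 (SE 0.27, adjusted p = 1.33e-05), 2.39 (SE 0.37, adjusted p = 8.83e-05) and 2.06 (SE 0.29, adjusted p = 2.18e-05).

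**Figure D4:**
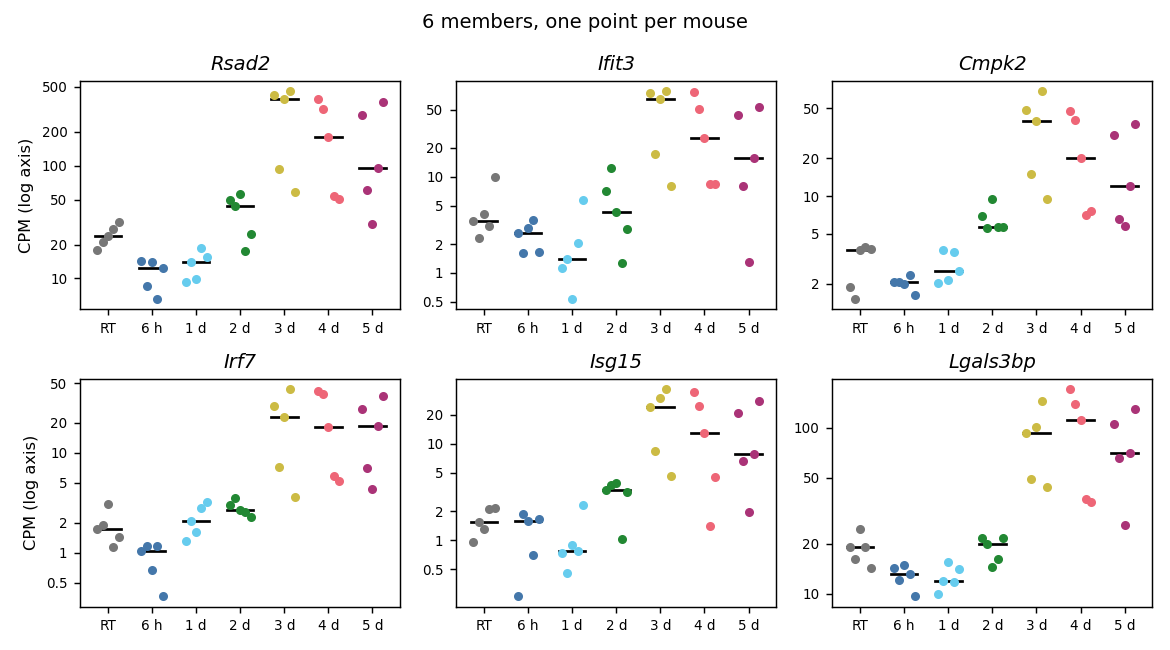
Levels of Rsad2, Ifit3, Cmpk2, Irf7, Isg15 and Lgals3bp in each mouse, in CPM on a log axis, by group. Each point is 1 mouse and the black line is the median of 5 mice. From 3 days on, mice of a group lie far apart in each gene, and the high mice lie well above the controls.

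Comparing durations of cold with each other places the turn between 1 and 3 days. In a single edgeR fit of all 35 mice, 36 members could be tested. Between 6 hours and 1 day 1 rose and 0 fell, beside 8.15% of all genes that rose and 7.16% that fell. This was Dhx58, at 0.87 ± 0.585 CPM after 6 hours and 3.69 ± 1.13 CPM after 1 day (2.06, SE 0.49, adjusted p = 0.00265), and 0 members fell at an unadjusted p below 0.05 or in DESeq2. Between 1 and 3 days 34 of 36 rose and 0 fell (0 also at an unadjusted p below 0.05 and in DESeq2), beside 7.83% of all genes that rose and 6.45% that fell. Members with few reads before 3 days, such as Zbp1, Isg15, Mx1, Oasl1, Oas2, Ifit3b and Cxcl10, passed the filter of this fit through high values later in the cold. Part of the count of 34 was thus set by the filter. The median was 2.74, and Dtx3l and Ifi27l2a were the 2 not called. Zbp1, a sensor of unusual nucleic acid that was too low to test against the controls, rose by 4.80, and Isg15 by 4.32. Both are given without tests for the same reason. In 22 members every mouse at 3 days was above every mouse at 1 day (4.43% of all genes tested).

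From 3 to 5 days the median was −0.74, and 1 member fell and 0 rose, beside 0.985% of all genes that fell and 1.32% that rose. The member was Stat2 (−1.19, SE 0.33, adjusted p = 0.0476), whose call was lost in 6 of 10 fits that left out 1 mouse. 15 members fell at an unadjusted p below 0.05, 2 fell in DESeq2, and 0 rose either at that p or in DESeq2. A difference among the 7 groups of any kind was called in 36 of 36 members (60.4% of all genes tested), a count that the filter also set in part.

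Members with few reads are given as raw counts. Mx1, listed among the antiviral effectors, had 3, 2, 4, 1 and 1 counts in the controls and 84, 11, 43, 61 and 0 counts after 3 days. Cxcl10, a chemokine that draws T cells, had 7, 6, 1, 1 and 9 counts in the controls and 58, 8, 78, 57 and 7 counts after 3 days. Zbp1 had 2, 3, 5, 0 and 3 counts, then 52, 18, 41, 77 and 3 counts. The pattern is that of the better measured members, with mice 1, 3 and 4 high and mouse 5 near the controls. Oasl1 (72, 28, 83, 96 and 2 counts after 3 days, 3, 4, 1, 2 and 1 in the controls) and Mx2 (124, 15, 67, 55 and 7, against 5, 9, 3, 3 and 3) were alike. Mx2 is annotated as a polymorphic pseudogene. Oas3, with 11, 2, 13, 8 and 0 counts after 3 days and 1, 13, 1, 5 and 8 in the controls, did not follow this order and was the only member that passed the filter in no fit. Zbp1, Oasl1, Oas2, Oas3, Mx1, Mx2 and Cxcl10 passed the filter in none of the 6 comparisons with controls.

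The other genes of the pathway were taken from lists of known components. Interferon transcripts themselves were nearly absent. Of 11 listed interferon genes 9 had 0 counts in all 35 mice, where 3 counts of the total of 171277621 would be 0.0175 CPM. Ifng had 5 counts in 4 mice and Ifne 3 counts in 1 control mouse. At this depth their levels could not be compared between groups.

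Receptor genes were called in 1 direction, lower, in the comparisons with controls. Of 6 receptor genes 5 were tested, and all 5 fell at 6 hours, by 0.34 (Ifnar2) to 1.07 (Il10rb), beside 21.0% of all genes that fell. Ifngr1, the ligand-binding chain for Ifng, fell in all 6 comparisons, by 0.43 at 3 days (SE 0.13, adjusted p = 0.0146) and by 0.98 at 5 days (SE 0.12, adjusted p = 5.95e-06). Of the kinases and factors downstream, 2 fell at 6 hours, Irf1 (−0.90, adjusted p = 2.49e-05) and Irf2 (−0.59), and none rose. Beside them, 21.0% of all genes fell and 21.5% rose. At 3 days Irf5 rose by 2.03 (adjusted p = 0.00623), Irf8 by 1.39 (adjusted p = 0.002) and Jak1 by 0.39, beside 18.3% of all genes that rose. Irf1 is a known mediator of the response to Ifng, while Irf5 and Irf8 are factors of myeloid cells.

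Among 7 negative regulators, the phosphatase Ptpn6 fell at 6 hours by 1.68 (adjusted p = 0.0125), while Ptpn1 and Usp25 rose by 0.37 and 0.45. At 3 days Ptpn1 and Usp25 were the 2 that rose, by 0.64 and 0.38, beside 18.3% of all genes. In the pathway that senses nucleic acid and leads to interferon (11 genes), Tlr3 fell at 6 hours by 1.39 (adjusted p = 0.00557) while the adaptor Mavs rose by 0.51 (adjusted p = 0.00667) and the kinase Tbk1 by 0.58. At 3 days 1 rose, the adaptor Myd88 (0.64), beside the same 18.3% of all genes. For both lists, 21.0% of all genes fell and 21.5% rose at 6 hours.

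A list of 43 further interferon-stimulated genes was examined in the same way. At 6 hours 13 of 29 tested fell and 2 rose (median −0.69), beside 21.0% of all genes that fell and 21.5% that rose. At 1 day 13 of 30 fell and 1 rose, beside 17.8% and 18.9% of all genes. The filter may have set part of these early counts. The largest falls at 6 hours were in the GTPases Gbp5 (−2.19, adjusted p = 0.000498), Gbp9 (−1.68, adjusted p = 0.00204) and Iigp1 (−1.68, adjusted p = 0.000138). Helz2, a nuclear receptor coactivator, and Ifi207 were those that rose at 6 hours, and Helz2 rose in all 6 comparisons, by 1.39 at 6 hours (SE 0.16, adjusted p = 1.77e-06). At 3 days 22 of 33 rose (18.3% of all genes) and 0 fell (15.5%), with a median of 1.07, led by Slfn8 (2.61), Ifi204 (2.26) and Phf11d (2.23). More of the list passed the filter here than at 6 hours, so the filter may have set part of this count. At 4 days 16 of 33 rose (19.4% of all genes) and at 5 days 10 of 33 (20.2%), with 0 called lower at either time and 0 and 1 lower at an unadjusted p below 0.05.

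The spread between mice of a group was wide in the members. The median SD of log2 CPM over members within a group was 0.43 in the controls and 0.41 at 6 hours, against 0.243 and 0.26 over 10648 genes. It was 1.01 at 3 days, 1.02 at 4 days and 0.97 at 5 days, against 0.273, 0.257 and 0.282 over all genes. These medians include Rsad2 and Ifit3, for whose spread the set was drawn up, so they are a description with no test. The genes set beside the members were not matched in level, and few reads alone raise an SD. The members also ranked the mice alike. Of the 36 members, 34 were highest in mouse 1 at 4 days, and 30 were lowest in mouse 3 at 5 days and 29 in mouse 5 at 3 days. Counted over all 39, mice 1 to 5 had 37, 27, 35, 37 and 17 members above every control at 3 days, and 33, 23, 8, 22 and 34 at 5 days. These counts include Rsad2 and Ifit3 and only describe how the mice differ. The share of all genes that lay above every control in a single mouse was not computed.

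Genes of monocytes moved with the same mice. The summed level of Ly6c2, Ccr2, Plac8 and Chil3 was 11.8, 6.67, 8.73, 6.03 and 9.16 CPM in the controls and 45.8, 9.92, 46.4, 47.6 and 10.3 CPM at 3 days. It was 32.6, 35.7, 33.3, 5.25 and 5.42 CPM at 4 days and 17.9, 11.0, 4.52, 16.3 and 28.6 CPM at 5 days. The mice low in the members were low in this sum. At 3 days 2 of the 4 monocyte genes passed the filter and both rose, Plac8 by 2.92 and Ccr2 by 1.31 (18.3% of all genes rose). Plac8 stood at 0.898 to 1.75 CPM in the controls and passed the filter through its high values at 3 days. Its rise is therefore a description. Their part in the differences of the members was not tested.

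The sum of 9 macrophage genes ran from 81.0 to 193 CPM in the controls (median 92.5), from 85.0 to 104 CPM at 6 hours (median 100), from 148 to 328 CPM at 3 days (median 181) and from 107 to 288 CPM at 4 days (median 252). At 3 days 4 of the 8 tested rose (18.3% of all genes), led by Cd68 (2.91) and Lyz2 (1.38). The sum was 328, 148, 179, 234 and 181 CPM in mice 1 to 5 at 3 days, an order that differs from that of the members. At 4 days it was 252, 288, 279, 107 and 113 CPM, with mice 4 and 5 lowest, as in the members. At 5 days it was 206, 161, 120, 216 and 237 CPM, with mouse 3 lowest and mouse 5 highest, as in the members. Other sums differed early, beside the fall of the members. That of 6 endothelial genes ran from 233 to 287 CPM in the controls and from 407 to 497 CPM at 6 hours. That of 8 genes of T and NK cells ran from 2.48 to 6.83 CPM in the controls and from 0.236 to 2.19 CPM at 6 hours, with no overlap. The median of the monocyte sum was 8.73 CPM in the controls, 5.28 CPM at 6 hours and 4.85 CPM at 1 day. That of 4 stromal genes ran from 347 to 487 CPM in the controls and from 269 to 335 CPM at 1 day, with no overlap. The genes of neutrophils, T and NK cells and B cells summed to less than 7 CPM in every mouse. The part of these cell types in the members' values was not tested.

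Irf7 was compared with other genes across all 35 mice after the group means of log2 CPM had been removed, with p-values from 100000 two-sided permutations of mice within groups, adjusted over the 9 relations computed. Isg15 followed Irf7 with r = 0.80 (permutation p = 0.00012, adjusted 0.000216) and rho = 0.69 (permutation p = 0.00076). Oasl2 gave r = 0.71 (permutation p = 0.00094, adjusted 0.00141) and rho = 0.65 (permutation p = 0.00129). Gbp2 gave r = 0.81 and rho = 0.77, both at the smallest p that the permutations can give (1e-05, adjusted 9e-05 for r). Gbp2 thus tracked Irf7 from mouse to mouse although its mean did not pass the test at 3 days.

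For Igtp r was 0.76 (permutation p = 0.0001, adjusted 0.000216) and rho 0.68 (permutation p = 0.00034). Lgals3, a galectin of macrophages, gave r = 0.69 (permutation p = 7e-05, adjusted 0.000216) and rho = 0.74 (permutation p = 1e-05). The proliferation gene Top2a gave r = 0.44 (permutation p = 0.00544, adjusted 0.00699) and rho = 0.43 (permutation p = 0.0139). With the 2 mice left out whose Irf7 lay farthest from its median, mouse 5 at 3 days and mouse 3 at 5 days, these values of r stayed between 0.36 (Top2a) and 0.80 (Gbp2).

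Adgre1 did not pass the test within durations (r = 0.24, permutation p = 0.123, adjusted 0.138, rho = 0.31, permutation p = 0.094, r = 0.23 without the 2 mice), although over all 35 mice without removing group means its r was 0.67 (permutation p = 4e-05). Within the 20 mice at 2 to 5 days r of Adgre1 was 0.62, and within the 15 mice up to 1 day, which include control mouse 5 with its high Adgre1, it was −0.42. With rlog values (r = 0.36) or scaling by library size alone (r = 0.33) Adgre1 passed the test. Ucp1 gave r = −0.24 (permutation p = 0.162, adjusted 0.162), rho = −0.25 (permutation p = 0.167) and r = −0.26 without the 2 mice. The relations rest on the later groups. Within the 20 mice at 2 to 5 days r was 0.92 for Isg15, 0.82 for Oasl2, 0.93 for Gbp2 and 0.91 for Igtp. Within the 15 mice up to 1 day it was −0.11, −0.19, 0.47 and 0.13, where Irf7 had few reads.

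**Figure D5:**
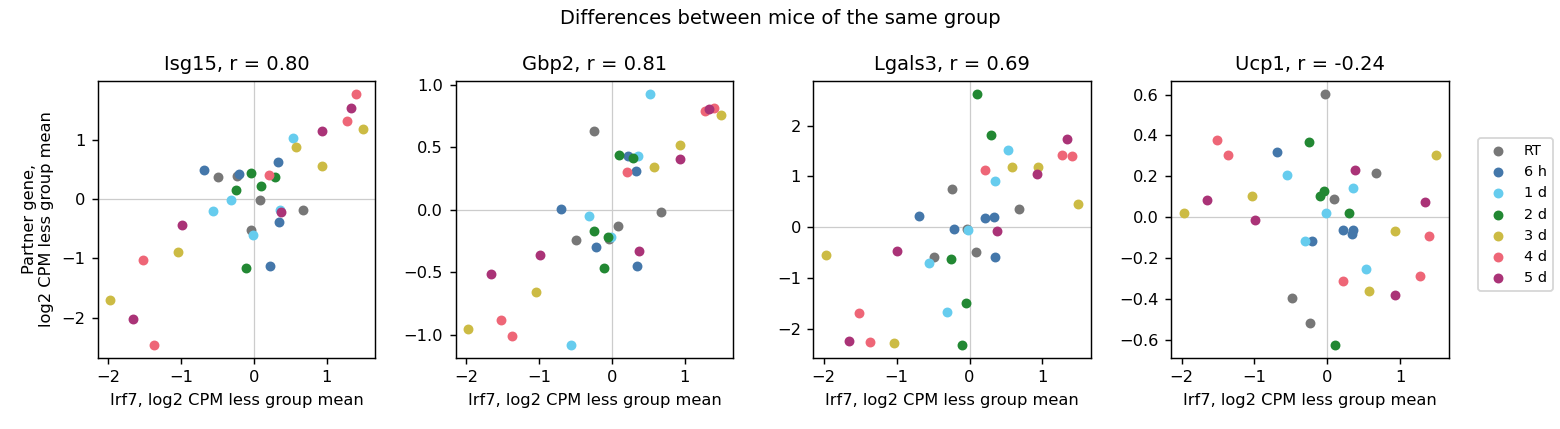
Isg15, Gbp2, Lgals3 and Ucp1 against Irf7 in 35 mice, as log2 CPM with the mean of each group removed, coloured by group. Each point is 1 mouse. Isg15, Gbp2 and Lgals3 rise with Irf7 (r = 0.80, 0.81 and 0.69), and Ucp1 shows no clear slope (r = −0.24).

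As a description with no test, each gene was correlated with the profile of the members across the 35 mice after group means were removed. Rsad2 had r = 0.96, Gbp3 0.94 and Irf7 0.93, 29 of the 36 members were above 0.8 and the lowest was Ifi27l2a at 0.017. A member is part of the profile it is compared with, which raises its r. Of the 50 genes with the highest r, 28 were members. Outside the set the closest were Ifitm3 (0.96), a membrane protein that blocks viral entry, and Ly6e (0.92), then Samhd1 (0.90), a nucleotide-degrading restriction factor, Cxcl9 (0.89), Ogfr (0.88) and the ubiquitin ligase Rnf213 (0.88), among 10612 genes. All points of these correlations share libraries and depth.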

How the data were processed

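RNA of iBAT from 35 mice was sequenced from the 3' end. Per the labels and the study's methods, the authors aligned reads with STAR 2.6.1d to GRCm38 and counted them with HTSeq 0.11.2, and they deposited whole-number counts per gene without normalization. The 267 rows without a symbol were kept in the fits. Libraries held 3846016 to 6047247 counts, of which mitochondrial genes took 33.6 to 46.2%. Reads without molecular identifiers are not independent molecules, so floors cover counting error only.

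All genes were fitted with edgeR 4.0.16 in R 4.3.3 (quasi-likelihood test after TMM scaling and filterByExpr, calls at a Benjamini-Hochberg adjusted p under 0.05), each duration against the controls in its own fit, and comparisons between durations in 1 fit of 35 mice. Changes are log2 fold changes and SD is over mice. Log2 CPM for profiles and correlations used a prior count of 2. Permutations ran in Python 3.11.15 with numpy 2.4.6 and scipy 1.17.1. Alternatives were other scalings, no filter, DESeq2 1.42.0, 1 fit of 7 groups, a replicate block, rlog values and leaving out each mouse. The procedure was tested on simulated data.

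Members, lists, comparisons and alternatives were chosen with earlier results of these data known. Values of every mouse are given for Rsad2, Ifit3, the member of each role with the highest mean CPM and up to 4 members called most often. Fold changes are given for these and for up to 4 called members per direction and comparison. From pathway lists up to 3 called genes per direction are named. Irf7, Isg15 and Gbp2 by mouse, and some smaller fold changes, were chosen after their values were seen. Promoters are from RefSeq, and 10 members had no entry. Some results computed in the same families, 1 of the 9 relations among them, are not reported here.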

Additional observations from a re-analysis of the deposited data

Results flagged for a closer look

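Among 112 groups of 5 mice examined for the named members, 3 had a mouse set apart from the others by more than Dixon's 95% value, fewer than the 5% that chance gives. Ddx58 in control mouse 3 was at 24.7 CPM, above the other controls. Gbp3 in control mouse 5, the mouse with high Adgre1, was at 12.8 CPM. Isg15 in mouse 4 at 2 days was at 1.03 CPM, below the others of its group. The effects of cold also differed between durations by the direct test of edgeR. Against 6 hours, 1 member was higher at 1 day (Dhx58). Against 1 day, 34 members were higher at 3 days, a count set in part by the filter. Against 3 days, 1 member was lower at 5 days (Stat2).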

How the results depend on the processing

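No called fold change of a named member changed sign under any alternative run. Some fold changes near 0 that did not pass the test did, as in Ddx58 at 5 days (0.10, and −0.13 at the lowest without 1 mouse). The count of members called moved by more than 1.5 times as follows. With all 7 groups in 1 fit, 9 fell at 6 hours, 0 rose and 0 fell at 2 days, and 0 fell at 4 days. Without a filter on low counts, 7 rose at 2 days, 29 at 4 days and 26 at 5 days, 2 fell at 5 days, 5 rose from 6 hours to 1 day and 19 fell from 3 to 5 days, where more members are tested. With library size alone 2 fell at 5 days and 0 from 3 to 5 days, and with library size without mitochondrial genes and Gm42418 2 fell in each. In DESeq2 2 rose from 6 hours to 1 day and 2 fell from 3 to 5 days. Library size alone moved the median of all genes by −0.15 to −0.25, and split the members at 2 days into 2 higher and 6 lower. Leaving out single mice gave 1 to 6 higher and 2 to 4 lower at 2 days, 0 to 1 lower at 4 days, 1 to 2 lower at 5 days and 0 to 3 lower from 3 to 5 days. The 24 members higher at 3 days became 22 to 31. Mean profiles moved in the controls (−0.32 with library size alone, −0.30 with rlog values), at 6 hours (−0.63, rlog) and at 1 day (−0.54, rlog). Adgre1 passed the test against Irf7 with rlog values (r = 0.36) and with library size alone (r = 0.33). The causes were not tested.

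The replicate numbers do not pair the mice, with a mean correlation of same-numbered mice of −0.0111 and 16 of 105 pairs above 0.1. With the replicate block, 2 members fell at 5 days. At 0.26 CPM per read in the smallest library, Mx1, Mx2, Zbp1, Oas2, Oas3, Oasl1 and Cxcl10 could not be tested against the controls.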
